A study of Mus musculus with 6 samples.

Results

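The glucocorticoid receptor, the related mineralocorticoid receptor, the enzymes that regenerate active glucocorticoid inside cells and a set of genes that the receptor is known to induce were followed in mouse white fat. The 10 genes were taken as a list: the receptors Nr3c1 and Nr3c2, the enzymes Hsd11b1 and H6pd, and the target genes Tsc22d3, Fkbp5, Klf9, Sgk1, Zbtb16 and Per1. Every probe set whose single gene name in the platform annotation was one of these was used, which gave 28 probe sets among 34945 with 1 gene name, and 10 of 18193 named genes. The rule used gene names only, but the 10 genes were chosen with earlier results of these data known. The data were array signals of whole epididymal white adipose tissue from 6 C57BL/6 mice aged 8 weeks, each hybridised to its own Affymetrix array. The gene for CNOT3 had been removed in 3 of them (CNOT3KO) by a Cre recombinase under the Adiponectin promoter, and 3 wild-type mice (WT) were the controls. CNOT3 is a subunit of CCR4-NOT, which deadenylates mRNAs. That promoter is active in adipocytes, so the other cells of the fat pad keep the gene, and whether the WT mice carried a floxed allele or the Cre transgene is not given in the sources used here.

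Glucocorticoids are adrenal steroids, corticosterone in mice, that enter cells and bind the glucocorticoid receptor, which is held ready for the hormone in the cytoplasm by the HSP90 chaperone machinery. The loaded receptor moves to the nucleus, where it binds DNA elements made of an inverted pair of short sequences and raises or lowers transcription of nearby genes. In fat, glucocorticoids promote adipocyte differentiation and influence lipolysis and inflammation, and the enzyme encoded by Hsd11b1 sets much of the local hormone level by turning the inert 11-keto form back into corticosterone.

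Cnot3 was checked first. Its brighter probe set read 194, 229 and 179 in CNOT3KO mice 1 to 3, against 305, 293 and 305 in WT mice 1 to 3, with no overlap (log2 difference -0.54, SE 0.14, limma adjusted p = 0.0131), though tested among all probe sets it was not called without CNOT3KO mouse 1 (-0.52). Its other probe set read 227 ± 24.1 in CNOT3KO and 263.5 ± 47.7 in WT (SD, n = 3 each) and was not called. The median signal per array lay between 82.1 and 92.9, and precision is limited by there being 6 arrays. Across the 12769 genes bright enough to be tested, 40.1% were called at an adjusted p under 0.05, with 2959 (23.2%) higher and 2156 lower in CNOT3KO. After median centring, in which the median of tested genes was set equal on all arrays, the split was 2318 higher and 2800 lower.

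The glucocorticoid genes were mostly lower in the knockout fat pad. Each of the 10 genes passed the signal filter with its brightest probe set, and 6 were called lower (Nr3c1, Tsc22d3, Klf9, Sgk1, Zbtb16 and Per1), 1 higher (Hsd11b1) and 3 were not called (Nr3c2, H6pd and Fkbp5). Over all tested genes, 16.9% were called lower. Since the 10 genes were chosen with earlier results known, their share beside that of all genes is a description only. The 3 CNOT3KO mice lay below all 3 WT mice in 5 of the 10 genes, against 22.7% of all tested genes. The median log2 difference of the 10 genes was -0.43, against 0.02 for all tested genes. After median centring, the 6 stayed called lower and Hsd11b1 was no longer called. With the mean of all probe sets of each gene, 3 were called lower (Klf9, Zbtb16 and Per1). The signals come from whole tissue, in which fewer cells of a type and less RNA per cell cannot be told apart.

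**Figure D1:**
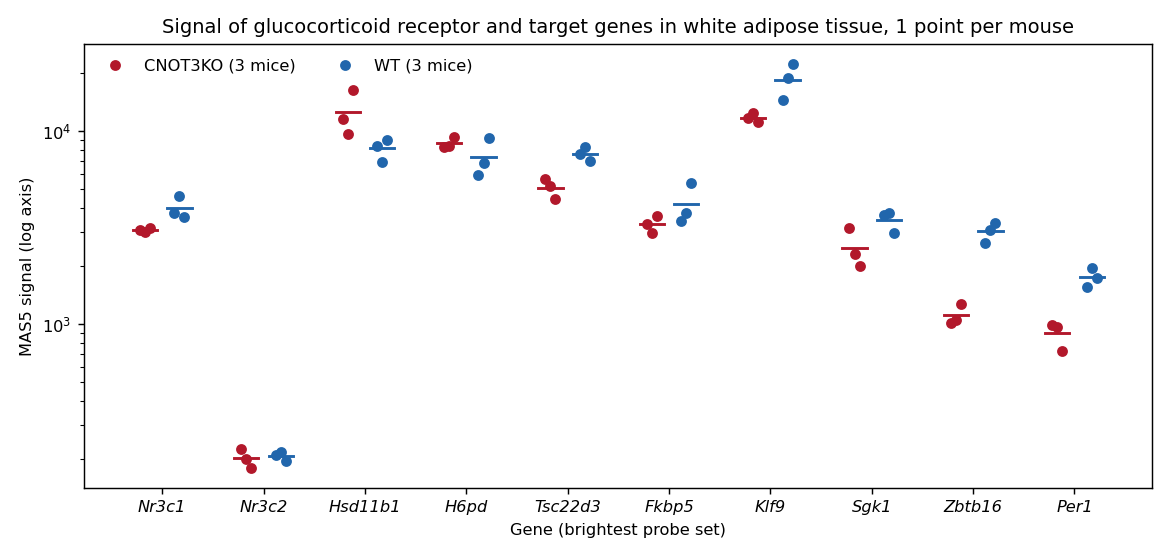
Signal (log axis) of the brightest probe set of each of the 10 genes, with 1 point per mouse, a bar at the group mean, CNOT3KO left and WT right of each pair. Zbtb16 and Per1 show the widest separation, Hsd11b1 is the gene with all CNOT3KO points above WT, and the groups overlap for Nr3c2, H6pd, Fkbp5 and Sgk1. Heights of different genes are not comparable, since probe sets differ in brightness.

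Nr3c1 encodes the glucocorticoid receptor. Its brightest probe set (Entrez Gene 14815) read 3077, 3011 and 3166 in CNOT3KO mice 1 to 3, against 3782, 4612 and 3580 in WT mice 1 to 3. All CNOT3KO mice were below all WT mice, by a small margin, and the gene was called lower at 0.779-fold of WT (log2 difference -0.36, SE 0.11, limma adjusted p = 0.0307). The call was lost without CNOT3KO mouse 1 (log2 -0.36) or 2 (-0.34), or without WT mouse 2 (-0.25). Of its 6 probe sets 4 were bright enough to be tested singly, and only the brightest was called, a call that leaving out any 1 mouse but WT mouse 3 ended. The next brightest read 2729 ± 332 in CNOT3KO and 3249 ± 338 in WT (SD, n = 3 each), a log2 difference of -0.25, with overlapping groups. The remaining tested probe sets differed by -0.14 and -0.25 on the log2 scale, also with overlap. Averaged over all its probe sets, dim ones included, Nr3c1 differed by -0.20 on the log2 scale (limma adjusted p = 0.336).

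Nr3c2 encodes the mineralocorticoid receptor, which binds corticosterone as well as aldosterone. Its 1 probe set (Entrez Gene 110784) read 224, 199.8 and 179.9 in CNOT3KO mice 1 to 3, against 210.1, 218 and 193.6 in WT mice 1 to 3. The groups overlapped almost completely, and the difference was -0.04 on the log2 scale (SE 0.15, limma adjusted p = 0.845). The sign of this small difference turned with quantile normalization (0.04), with array weights (0.04) and without CNOT3KO mouse 3 (0.03).

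Hsd11b1 encodes the reductase of the endoplasmic reticulum that regenerates corticosterone, and it was the 1 gene of the set called higher. It read 11592, 9622 and 16349 in CNOT3KO mice 1 to 3, against 8407, 6966 and 9049 in WT mice 1 to 3 (Entrez Gene 15483). Every CNOT3KO mouse was above every WT mouse, although CNOT3KO mouse 2 exceeded the highest WT mouse only slightly, and the fold was 1.51 (log2 difference 0.59, SE 0.18, limma adjusted p = 0.0281). The call was lost without CNOT3KO mouse 1 (log2 0.63) or 3 (0.38), or without WT mouse 1 (0.62) or 2 (0.49). It was also lost after median centring (0.50).

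H6pd encodes the hexose-6-phosphate dehydrogenase of the same compartment, which makes the NADPH that the Hsd11b1 enzyme uses. Its signal was 8304, 8380 and 9314 in CNOT3KO mice 1 to 3, against 5936, 6835 and 9269 in WT mice 1 to 3 (Entrez Gene 100198). The CNOT3KO mice clustered at the upper end, and WT mouse 3 lay among them. At 0.26 on the log2 scale (SE 0.15, limma adjusted p = 0.209) H6pd was not called, but it was without WT mouse 3 (log2 0.44, limma adjusted p = 0.018).

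Zbtb16 encodes PLZF, a zinc finger transcriptional repressor whose mRNA is strongly induced by glucocorticoids in several cell types, and it differed most among the 10 genes. Its brightest probe set (Entrez Gene 235320) read 1008, 1050 and 1265 in CNOT3KO mice 1 to 3, against 2628, 3085 and 3353 in WT mice 1 to 3. The highest CNOT3KO mouse was far below the lowest WT mouse, and the signal fell to 0.371 of WT (log2 difference -1.43, SE 0.13, limma adjusted p = 5.38e-05). Its 2 other probe sets were also lower without overlap. One, whose ID has the suffix x for probes that may cross-hybridise, read 670 ± 56.8 in CNOT3KO and 1698 ± 70.8 in WT, and the dimmer one 110.6 ± 34.5 in CNOT3KO and 261 ± 25.8 in WT (SD, n = 3 each). Their log2 differences were -1.32 and -1.12, both called, and leaving out any 1 mouse kept the brightest between -1.53 and -1.35, called each time.

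Per1 encodes a period protein of the circadian clock whose gene is also a direct glucocorticoid target. It read 991, 969.6 and 726 in CNOT3KO mice 1 to 3, against 1565, 1946 and 1732 in WT mice 1 to 3 (Entrez Gene 18626). The groups were well apart, and the signal fell to 0.516 of WT (log2 difference -0.95, SE 0.14, limma adjusted p = 0.00077). Without any 1 mouse the difference stayed between -1.03 and -0.81 on the log2 scale and was called each time.

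Klf9 encodes a Krüppel-like transcription factor induced by glucocorticoids and thyroid hormone. Its brightest probe set (Entrez Gene 16601) read 11668, 12381 and 11202 in CNOT3KO mice 1 to 3, against 14529, 18777 and 22285 in WT mice 1 to 3. The CNOT3KO mice were close together below a spread-out WT group (log2 difference -0.64, SE 0.15, limma adjusted p = 0.00772). Klf9 had the most probe sets of the set, and 6 of the 7 were tested singly and called lower, each without overlap, while the seventh, at 30.02 ± 9.58 in CNOT3KO and 43.004 ± 8.11 in WT (SD, n = 3 each), was under the filter. The size of the fall differed between them. The largest was 966 ± 85.5 in CNOT3KO against 2133 ± 215 in WT (SD, n = 3 each; log2 -1.12), and the smallest 8593 ± 503 in CNOT3KO against 12247 ± 2089 in WT (log2 -0.50). That smallest call was lost without CNOT3KO mouse 1 (-0.47) or WT mouse 2 (-0.49). The call of the dimmest tested probe set (log2 -0.54) was lost without CNOT3KO mouse 1 (-0.53) or 2 (-0.42), or WT mouse 2 (-0.58) or 3 (-0.41).

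Tsc22d3 encodes GILZ, a leucine zipper protein that mediates part of the anti-inflammatory action of glucocorticoids. It read 5675, 5185 and 4428 in CNOT3KO mice 1 to 3, against 7636, 8281 and 7005 in WT mice 1 to 3 (Entrez Gene 14605). The groups did not overlap, and the signal fell to 0.666 of WT (log2 difference -0.59, SE 0.12, limma adjusted p = 0.00387). A second probe set fell by a similar amount, with 1970 ± 143 in CNOT3KO and 2914 ± 216 in WT (SD, n = 3 each; log2 -0.56, limma adjusted p = 0.00357 over all probe sets). The IDs of both carry the suffix a, for probes shared by transcripts of 1 gene. Another, with the suffix x for probes that may cross-hybridise, read 334 ± 62 in CNOT3KO and 291 ± 50.6 in WT, a log2 difference of 0.18 that was not called, and the fourth was under the filter. Averaged over all 4, the log2 difference of Tsc22d3 was -0.18 and not called (limma adjusted p = 0.172).

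Sgk1 encodes a serine/threonine kinase that regulates ion channels and transporters and is induced through both receptors. Its signal was 3143, 2321 and 1990 in CNOT3KO mice 1 to 3, against 3692, 3774 and 2968 in WT mice 1 to 3 (Entrez Gene 20393). CNOT3KO mouse 1 was above WT mouse 3, so the groups overlapped, and the fall to 0.707 of WT passed the test narrowly (log2 difference -0.50, SE 0.17, limma adjusted p = 0.0394). The call was lost without CNOT3KO mouse 2 (log2 -0.46) or 3 (-0.35), or without WT mouse 1 (-0.45) or 2 (-0.44). With array weights the difference was -0.28 and not called.

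Fkbp5 encodes FKBP51, an HSP90 co-chaperone that lowers the receptor's affinity for hormone and is itself a common readout of receptor activity. Its brightest probe set (Entrez Gene 14229) read 3288, 2965 and 3612 in CNOT3KO mice 1 to 3, against 3403, 3781 and 5391 in WT mice 1 to 3. CNOT3KO mouse 3 was above WT mouse 1, and at -0.32 on the log2 scale (SE 0.16, limma adjusted p = 0.148) Fkbp5 was not called. A second probe set read 403 ± 86.9 in CNOT3KO and 365 ± 71 in WT (SD, n = 3 each; log2 0.13, not called), and the third lay at or just above 1, the lowest value in the table, in all 6 arrays.

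Tested singly over all 22861 probe sets that passed the filter, 23 of the 28 probe sets entered, of which 14 were called lower, 1 higher and 8 in neither direction. Over all tested probe sets 35.8% were called and 17.2% were called lower. After median centring the lower calls among the 23 were again 14, while over all probe sets the split of 4242 higher and 3938 lower became 3325 higher and 5217 lower. Probe sets of a gene share its transcripts and are not independent of each other.

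**Figure D2:**
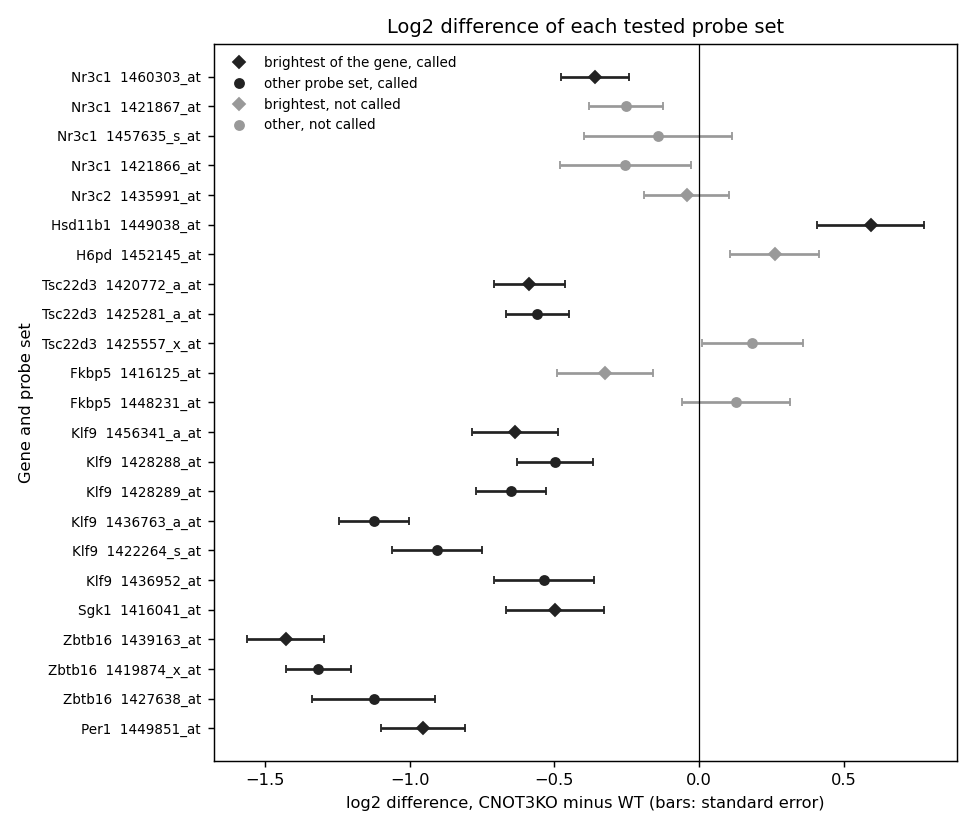
Log2 difference (CNOT3KO minus WT) of each of the 23 tested probe sets with its standard error, diamonds marking the brightest probe set of a gene and black symbols the called ones. The 3 Zbtb16 probe sets lie between -1.43 and -1.12 and the 6 Klf9 probe sets between -1.12 and -0.50, all left of 0, while the third Tsc22d3 and the second Fkbp5 probe set lie right of 0, opposite to the brightest of the same gene.

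The glucocorticoid receptor binds inverted pairs of the hexamer TGTTCT, with the members of a pair 3 bases apart, and the start-site windows of the genes were searched for it. The windows run from 250 bases before to 50 bases after an annotated start (RefSeq, GRCm38.p6), and 8 of the 10 genes had one, 16 in all, with Nr3c1 and Zbtb16 not analysed here. The hexamer, on either strand, was in 5 of the 16 windows (31.2%), against 19% of 32851 windows of all genes. An exact inverted pair was in 1 of the 16 and in 3 of the 32851. Allowing 5 of 6 letters in each hexamer, a pair was in 2 of the 16 (12.5%) and in 1% of all windows. Sgk1 alone has 6 of the 16 windows, and it held both windows with a pair and most of those with the hexamer. The shares of the 16 thus rest largely on 1 gene, whose windows are not independent. The windows of all genes include the 16. The matches are shown because they are the letters the receptor is known to recognise, with the hexamer or pair in capitals. Those of Sgk1 fell in 4 of its 6 windows, and the exact pair, which includes 2 of its hexamers, started 189 bases before one start and 965 bases before the next, in a window with 1 further hexamer. The array does not tell the starts of a gene apart. Klf9, Per1, Fkbp5, Hsd11b1 and Nr3c2 had no match in these windows.
Sgk1, chr10:21993689-21993727, plus strand, exact pair: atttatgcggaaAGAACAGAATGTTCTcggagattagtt
Sgk1, chr10:21985909-21985947, plus strand, pair with 5 of 6 letters: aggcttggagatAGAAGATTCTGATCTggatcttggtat
Sgk1, chr10:21881977-21882006, plus strand, 1 hexamer: aagggaatccgtTGTTCTgtgttttctgtg
Sgk1, chr10:21992198-21992227, plus strand, 1 hexamer in reverse: aaagtgggactcAGAACAgaaaggcaatag
Tsc22d3, chrX:140600690-140600719, minus strand, 1 hexamer: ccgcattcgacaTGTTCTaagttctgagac
H6pd, chr4:150003313-150003342, minus strand, 1 hexamer: tctattgaccttTGTTCTtaatggaatttg

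Chaperones of the receptor held calls in both directions. Of 14 genes of chaperones and their partners linked to the receptor, 11 were tested, 4 were called higher and 2 lower, with a median log2 difference of 0.22. Over all tested genes 23.2% were called higher and 16.9% lower, so the lower share was near that of all genes, and 2 of the 4 higher calls changed sign with another choice of probe set. Bag1, a nucleotide exchange factor of HSP70 that can also bind the receptor, fell to 0.602 of WT, with 3406 ± 221 in CNOT3KO and 5671 ± 398 in WT (SD, n = 3 each). Stip1, the adaptor between HSP70 and HSP90, rose 1.55-fold, with 1012 ± 45.2 in CNOT3KO and 644 ± 23.2 in WT (SD, n = 3 each). St13, another HSP70 partner, was called lower by its brightest probe set at 0.675-fold, but read -0.09 on the log2 scale without a call when probe sets with a suffixed ID were left aside (its brightest has the suffix a). Hspa8, the constitutive HSP70, was called higher at 1.45-fold by a probe set with the suffix x, and its log2 difference turned to -0.56, not called, under that choice. Dnajb1, an HSP40, was called at 1.31-fold, a call lost without CNOT3KO mouse 1 (log2 0.37) or WT mouse 2 (0.33). Fkbp4, the immunophilin that competes with FKBP51 for HSP90, was called at 1.23-fold and lost its call without any 1 mouse (log2 0.26 to 0.33). Its log2 difference was -0.01 when its probe sets were averaged. After median centring, 2 of these genes were called higher and 2 lower.

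Of 12 coregulators through which the receptor acts, 10 were tested and 7 were not called, among them the coactivators Ncoa1, Ncoa2 and Ncoa3. The other calls were 1 higher and 2 lower, against 23.2% higher and 16.9% lower over all tested genes. The lower share was near that of all genes. Nrip1, the corepressor RIP140, fell to 0.587 of WT, with 4084 ± 496 in CNOT3KO and 6950 ± 533 in WT (SD, n = 3 each). Med14, a Mediator subunit that binds the receptor, read 451 ± 61 in CNOT3KO and 873 ± 40.9 in WT (SD, n = 3 each; log2 -0.93), but -0.12 and not called when its probe sets were averaged. Smarca4, the ATPase of a chromatin remodelling complex, was called at 1.25-fold. It lost its call without any 1 of the CNOT3KO mice (log2 0.30 to 0.34) or without WT mouse 2 (0.26) or 3 (0.33). After median centring the list held 3 lower calls, and Smarca4 was not called.

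Other genes known to be induced by glucocorticoids, in fat or in other tissues, held calls in both directions. Of 40 listed, 37 were tested, and 9 were called higher, 10 lower and 18 in neither direction (median log2 difference -0.26). The all-gene shares were 23.2% higher and 16.9% lower, and the higher share of the list was near the first. Cdkn1a, the cell cycle inhibitor p21, read 5254 ± 272 in CNOT3KO and 420.0 ± 51.7 in WT (SD, n = 3 each), an 11.97-fold rise. Lcn2, an acute phase lipocalin, rose 6.25-fold. Pdk4, a kinase that switches off pyruvate dehydrogenase, rose 3.98-fold, and Il1r2, the decoy receptor for interleukin 1, rose 3.68-fold. Pck1, which makes glycerol precursor in fat, fell to 0.346 of WT, with 5799 ± 741 in CNOT3KO and 16711 ± 660 in WT (SD, n = 3 each). After median centring, 7 were called higher and 14 lower. Several of these genes answer to other signals as well, p53 for Cdkn1a and insulin for Pck1 among them. A place in the list does not mean that a gene, Pck1 included, is induced by glucocorticoids in fat.

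Of 15 inflammatory genes that glucocorticoids are known to repress, 6 were too dim to be tested, Il6 and Tnf among them. The other 9 held 3 called higher (Ccl2, Mmp13 and Cxcl10), 1 lower (Mmp9) and 5 not called, with a median log2 difference of 0.38. In a list of 9 genes these counts are not far from the all-gene shares of 23.2% higher and 16.9% lower. Ccl2, the monocyte chemokine, read 566, 563 and 816 in CNOT3KO mice 1 to 3, against 111, 127 and 234 in WT mice 1 to 3, a 3.84-fold rise without overlap. Mmp13, a collagenase, read 87.1 ± 32.2 in CNOT3KO and 16.4 ± 4.9 in WT (SD, n = 3 each). Its WT values were under the offset of 22.5, which lowers its fold. Mmp13 and Mmp9 each passed the filter through 1 group alone, and with the filter at the 60th percentile 5 genes of the list were tested, of which 1 was called, higher. The call of Cxcl10 (log2 0.75) was lost without CNOT3KO mouse 1 (0.63) or 3 (0.68) or WT mouse 2 (0.53), and that of Mmp9 (-1.27) without CNOT3KO mouse 3 (-0.95) or WT mouse 1 (-0.96). Macrophage markers were higher in the same mice, with values given below, and their part in these differences was not tested.

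Steroid handling genes and enzymes related to NADPH supply were 15, of which 9 were tested, 3 called higher and 2 lower. For so short a list these counts are not far from the all-gene shares of 23.2% higher and 16.9% lower. The calls lower were the steroid-exporting efflux pumps Abcb1a and Abcb1b. Abcb1a read 215, 189 and 139.8 in CNOT3KO mice 1 to 3, against 530.2, 478 and 387 in WT mice 1 to 3, which is 0.416-fold, and Abcb1b fell to 0.538 of WT. Hsd11b2, the enzyme that inactivates corticosterone, read 123.4 ± 40.9 in CNOT3KO and 136.6 ± 19.3 in WT (SD, n = 3 each) and was not called. The calls higher were Pgd (1.48-fold) and Pgls (1.30-fold), of the cytosolic pentose phosphate pathway, and Srd5a3 (1.37-fold), of the steroid 5-alpha-reductase family. Pgd and Pgls thus act outside the compartment in which H6pd makes NADPH for the Hsd11b1 enzyme. Pgd lost its call without any 1 of the CNOT3KO mice (log2 0.50 to 0.62) or WT mouse 3 (0.32), Pgls without CNOT3KO mouse 1 (0.36) or 3 (0.30) or WT mouse 1 (0.38) or 2 (0.36), and Srd5a3 without WT mouse 2 (0.39). Srd5a3 was also not called when its probe sets were averaged (0.15) or when those with a suffixed ID were left aside (0.30). After median centring, and likewise after centring by ribosomal protein genes, 1 of the list was called higher and 2 lower.

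Of 11 genes known as mineralocorticoid receptor targets, 7 were tested and 2 were called higher, Lcn2 and Ptgds, with the other 5 not called. That share was near the 23.2% of all tested genes called higher. Lcn2 is the same call as among the other glucocorticoid-induced genes above, since it is in both lists. Ptgds, a prostaglandin D synthase, read 3870, 840.3 and 4103 in CNOT3KO mice 1 to 3, against 268, 103.5 and 141.2 in WT mice 1 to 3. CNOT3KO mouse 2 was well below the other CNOT3KO mice and still above all WT mice (log2 difference 3.72, SE 0.54, limma adjusted p = 0.000631).

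Per1 was low together with other clock genes. Of 18 listed clock partners 15 were tested, and 8 were called lower and 1 higher, with 6 not called (median log2 difference -0.41). Over all tested genes 16.9% were called lower and 23.2% higher. Per3 read 811, 939.7 and 696.4 in CNOT3KO mice 1 to 3, against 2409, 3047 and 2941 in WT mice 1 to 3, or 0.297-fold. The clock output factors Dbp and Hlf fell to 0.315 and 0.378 of WT, and Ciart, a repressor of the clock, to 0.383. Arntl, which encodes the activator BMAL1, was the 1 called higher, with 354 ± 52.3 in CNOT3KO and 84.4 ± 18.8 in WT (SD, n = 3 each), but differed by 0.11 on the log2 scale without a call when probe sets with a suffixed ID were left aside (its brightest has the suffix a). The counts were the same after median centring. The hour at which tissue was taken is not given in the sources used here.

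**Figure D3:**
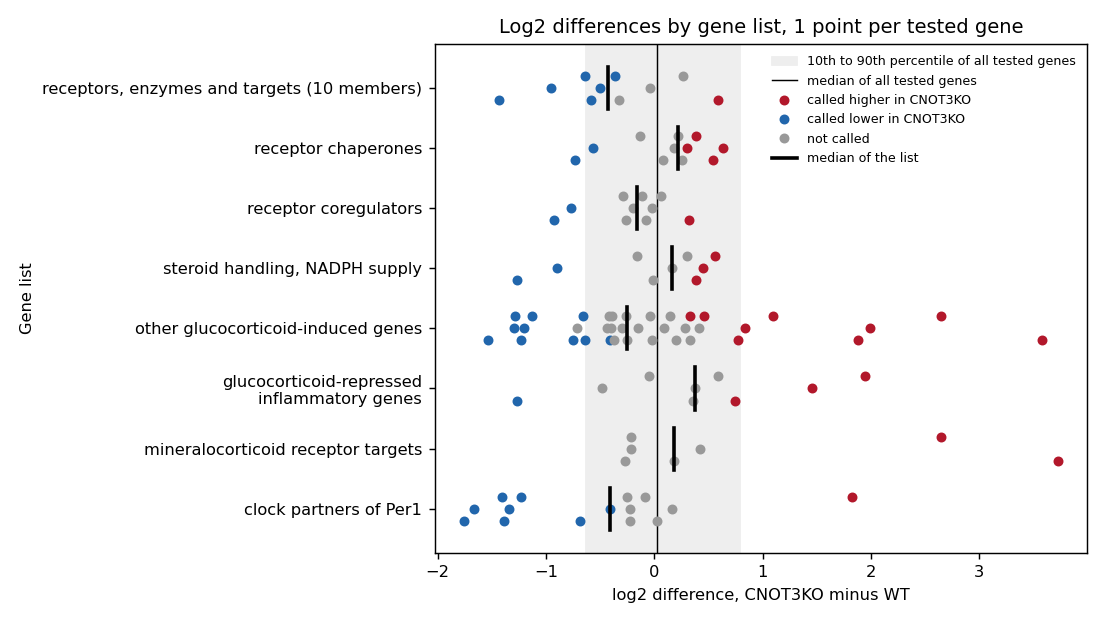
Log2 difference (CNOT3KO minus WT) of each tested gene in the 10-gene set and in 7 related lists, with red for called higher, blue for called lower and grey for not called. Black bars are list medians, and the grey band spans the 10th to 90th percentile of all tested genes (-0.63 to 0.79). The medians of the 10-gene set and of the clock partners lie left of 0, at -0.43 and -0.41, as do those of the other glucocorticoid-induced genes (-0.26, with genes from -1.53 to 3.58) and of the coregulators (-0.16).

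The genes whose signals over the 6 arrays were most like those of Zbtb16, by the root mean square difference of centred log2 values, were Znrf2 (0.09), Lonrf1 (0.09) and 1700096K18Rik (0.10). Znrf2, which encodes a ubiquitin ligase, read 1434, 1472 and 1758 in CNOT3KO mice 1 to 3, against 3992, 4207 and 5419 in WT mice 1 to 3. This is a description of pattern over 6 arrays in 2 groups, in which any gene lower by a similar amount and with little scatter will rank high.

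Marker genes of several cell types differed in signal between the groups, which does not measure cell numbers. The shares to set beside the counts are those of all tested genes, 23.2% called higher and 16.9% lower. Of 15 endothelial markers 14 were called lower, the other not called, and their summed signal lay between 8912 and 10094 in CNOT3KO and between 23529 and 24074 in WT. Of 20 macrophage markers 17 were called higher, and the sums lay between 94782 and 124320 in CNOT3KO and between 40903 and 51838 in WT. The 1 macrophage marker called lower was Mertk (0.754-fold). Mertk lost its call without CNOT3KO mouse 1 (log2 -0.45) or 3 (-0.29) or WT mouse 2 (-0.30) or 3 (-0.45). Mertk and Cd163 are also in the list of other glucocorticoid-induced genes, and Cd163 was not called (limma adjusted p = 0.0657). Of 14 tested adipocyte markers 5 were called lower, Lep and Cidec among them, the other 9 not called, and sums between 181178 and 219140 in CNOT3KO and between 208619 and 258440 in WT, which overlapped. Of 10 mural cell markers 6 were called lower and 2 higher (1 higher without CNOT3KO mouse 1). With 1 mouse left out the lower calls ranged from 4 to 7, with 4 without CNOT3KO mouse 1 or 3 or WT mouse 2 or 3. Of 8 mesothelial markers 5 were called lower with 3 not called (3 lower without WT mouse 2). Fibroblast and progenitor markers held 4 higher and 1 lower of 11 (Pi16, not called without any 1 mouse but CNOT3KO mouse 2), or 3 higher and 2 lower after median centring. Of 7 tested T and NK cell markers 2 were higher, a share near that of all genes, and 5 not called. Of 3 tested B cell markers 2 were lower (Ms4a1 and Cd79b), both not called without WT mouse 2 or with the mean of all probe sets. Cd79b passed barely (limma adjusted p = 0.0497). It also lost its call without CNOT3KO mouse 3 (log2 -0.63) or WT mouse 3 (-0.98), and under several other settings. Cell cycle genes were called higher in 13 of 14 cases. Both of those B cell markers, 3 of the cell cycle genes and 1 endothelial marker passed the filter through 1 group alone. No marker list was at 0, but Cd3e, Cd4 and Cd79a were under the filter. The part of these cell types in the differences of the glucocorticoid genes was not tested.

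**Figure D4:**
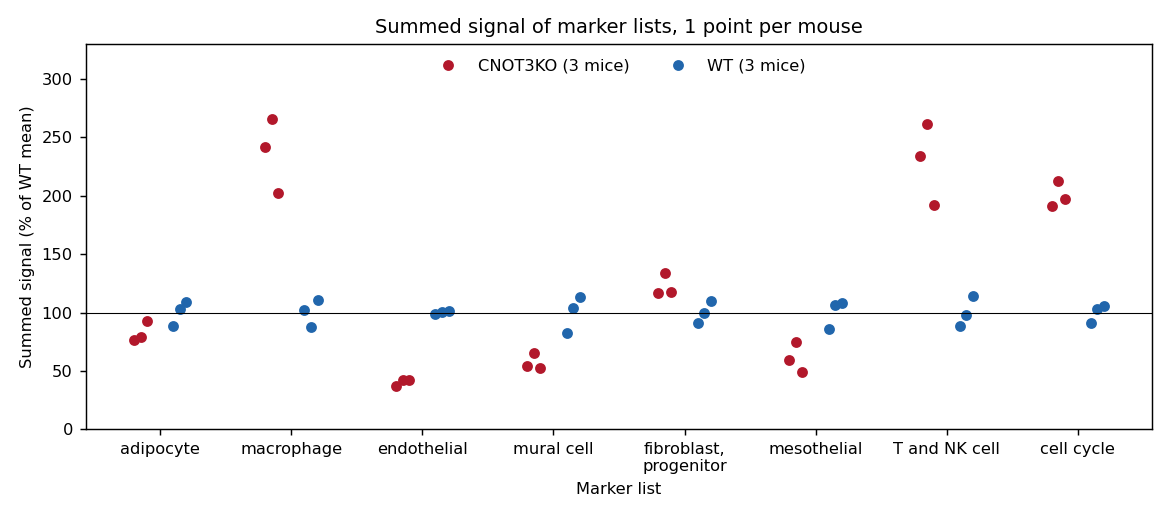
Summed signal of the genes in each marker list as a percentage of the WT mean, with 1 point per mouse, CNOT3KO left and WT right. The endothelial sums of CNOT3KO mice lie between 37.4% and 42.4% and the macrophage sums between 202% and 265%, while the adipocyte sums of CNOT3KO mice, between 76.5% and 92.6%, overlap those of WT mice.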

How the data were processed

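The deposited table holds MAS5 signal intensity on a linear scale, with a value for each probe set on each array, which the authors obtained from MAS5 (version, settings and scaling target not given in the sources used here), per the submitters' processing notes. Biotin-labelled cRNA was made from 500 ng of total RNA, per the labels' protocols. Trimmed array means differed by at most 0.07%, so the arrays had been scaled before deposit. MAS5 corrects with mismatch probes, which makes dim signals noisy on a log scale.

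Of 45037 probe sets, 34945 carried 1 gene name, 932 several and 9160 none in the annotation used. The brightest probe set stood for each gene. Probe sets under the 40th percentile of mean signal (51.6) were left untested, so that 12769 genes and 22861 probe sets remained. Signals were offset by 22.5, their 25th percentile, and taken to log2. All genes were tested together in limma 3.58.1 under R 4.3.3 (lmFit, then eBayes using trend), two-sided, at a Benjamini-Hochberg adjusted p under 0.05. Each difference is CNOT3KO minus WT, folds are on the offset scale, and the median standard error was 0.15. The procedure was tested on simulated data with independent noise and few changed genes. Such data do not show how calls behave where 40.1% of genes are called, as here. Adjusted p-values in the text are over all tested genes unless probe sets are named. Python 3.11.15 with pandas 2.3.3, scipy 1.17.1 and matplotlib 3.10.9 read and plotted the data.

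The choice of the 10 genes, of the lists and of the naming rule was made with earlier results of these data known. The rule took all 10 genes, Cnot3, up to 5 called genes with the largest difference in each related list (3 in marker lists), and the 3 genes most like the member with the largest difference. Members of counts of 5 or fewer, genes named as not called or dim, and Mertk were picked once their values had been seen. Other settings tried concerned the offset (1, or the overall median of 88.5), filtering (absent, or at the 60th percentile), normalization, probe set choice (the mean, or the brightest without a suffix a, s, x or g in its ID), variance model, array weights, mouse number as a block, and each mouse left out. The titles name separate mice. No outlier test was made in groups of 3.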

Additional observations from a re-analysis of the deposited data

How the results depend on the processing

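The calls of the genes Zbtb16, Per1 and Klf9 held under all 19 alternatives. Per1 has 1 probe set, so averaging probe sets or choosing another could not change its values. The brightest Zbtb16 probe set has no suffix in its ID, so leaving suffixed IDs aside changed the probe set of Klf9 alone among these genes. The brightest probe sets of Zbtb16, Per1 and Klf9, tested singly, stayed called under the 17 alternatives that apply to single probe sets. The count of 6 genes called lower stayed between 4 and 6 under every alternative except the mean of all probe sets, where it was 3, and between 4 and 6 with 1 mouse left out. The single higher call, of Hsd11b1, went to 0 with no filter, with centring on the median of tested genes and without trend in eBayes, and the count ranged from 0 to 2 with 1 mouse left out, H6pd joining without WT mouse 3. The 1 higher call among probe sets went to 0 under the same settings and with centring on ribosomal protein genes, and ranged from 0 to 2 with 1 mouse left out. Nr3c1 and Sgk1 also lost their calls with centring on ribosomal protein genes (-0.37 and -0.51) and without trend (-0.36 and -0.50). Differences of uncalled results that changed sign were those of Nr3c2 (0.0363 with quantile normalization, 0.0392 or, tested singly, 0.0344 with array weights, and from -0.1135 to 0.0280 with 1 mouse left out), the third Nr3c1 probe set (from -0.4365 to 0.0849 with 1 mouse left out, the highest without CNOT3KO mouse 3, and 0.0072 and 0.0038 without WT mouse 1 and 2) and the second Fkbp5 probe set (from -0.0004, without CNOT3KO mouse 3, to 0.2997 with 1 mouse left out). Among called ones, Hspa8 turned to -0.5570 and Fkbp4 to -0.1235 when probe sets with a suffixed ID were left aside, and Fkbp4 to -0.0123 with the mean of all. With both, the alternative reads other probe sets of the gene. Tsc22d3 could not be tested with suffixed IDs left aside, since its remaining one is under the filter. The mouse numbers in the titles gave correlations of deviations of 0.0742, 0.109 and 0.0433 for same-numbered mice, so pairing was not assumed, although every mouse correlated best with its own number. With the replicate block 5092 genes were called instead of 5115, and 6 of the 10 genes were lower and 1 higher, as without it. No call among the 10 genes changed. With 3 mice per group, a difference that was not called is not shown to be absent.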
